A study of Drosophila melanogaster with 14 samples.

Results

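The genes described here are 38 genes of chromosome 4 of the fruit fly Drosophila melanogaster, out of 101 chromosome 4 genes and 16727 genes in the deposited count table. They were taken by symbol from a list drawn up with results of these same libraries already known, and all 38 had an entry. The members were chosen by values of these libraries, and which of the comparisons with the control guided the choice is not recorded, so all of them count as used. Levels, changes and calls at the threshold of the listed genes are therefore given as a description, with no p-values, and are not independent evidence. In the RefSeq table for the dm6 assembly all 38 lay on chromosome 4, from PlexB (starting at 32478) to CG33521 (ending at 1192985). There were 36 protein-coding genes, the antisense RNA gene CR43425 and the long non-coding RNA gene CR44440.

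Chromosome 4 is a small autosome that is largely packaged as heterochromatin and yet carries active genes. In flies its genes are covered by the heterochromatin protein HP1 and by Pof, a protein that paints this chromosome, and the histone methyltransferase Eggless acts there. L(3)mbt, named for its malignant brain tumour repeats, acts on chromatin and keeps germline genes low in somatic cells, and Lint-1 is a partner of it in a repressor complex.

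RNA was sequenced from cultured ovarian somatic cells, a fly line of follicle-cell origin, after 48 hours of RNAi. The 4 groups of 2 libraries were the knockdown of EGFP, a sequence that fly cells lack and here the control (EGFP KD), and the knockdowns of l(3)mbt (L(3)mbt KD), Lint-1 (Lint-1 KD) and the interactor gene Lint-O (Lint-O KD). All 4 groups were the same kind of cultured cell and all received RNAi. Nothing in the labels ties the 2 libraries of a group to separate cultures. Their spread may therefore be technical, and p-values measure only that spread. Adjusted p-values printed for unlisted genes are from edgeR's quasi-likelihood test. With 2 libraries against 2, the smallest two-sided p of an exact permutation test is 0.333.

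Each library held 18293791 to 20978039 reads on genes. The targeted mRNAs stood at 53.2% (l(3)mbt), 20.2% (Lint-1) and 8.29% (Lint-O, entered as CG2662) of the control level in their own knockdowns. Follicle-cell markers were present in all libraries, with a summed level over 6 genes of 1108 to 1480 CPM, the count scaled to the library's TMM-normalised total. Summed over 8 germ cell markers the level was 53.4 to 76.9 CPM in EGFP KD, 288 to 295 CPM in L(3)mbt KD, 134 to 147 CPM in Lint-1 KD and 160 to 194 CPM in Lint-O KD, and of these otu stayed under 1 CPM in all libraries. Summed hemocyte markers were at 233 to 247 CPM in EGFP KD and 282 to 393 CPM in the knockdowns, neuron markers at 27.2 to 49.1 CPM and fat body markers at 1027 to 1730 CPM over all libraries, and muscle markers at 12.4 to 17.3 CPM in EGFP KD and Lint-O KD and 29.1 to 34.4 CPM in the other knockdowns. The neuronal genes brp, nSyb, Syt1 and para, the muscle genes Tm2, up and wupA, the hemocyte genes Hml, NimC1 and He and the fat body genes Yp1, Yp2 and Lsp2 were also under 1 CPM in all libraries. The fat body sum thus came almost wholly from FASN1 and Yp3. In L(3)mbt KD Yp3 was higher (edgeR adjusted p under 0.05), while FASN1 had a lower fitted level than in the control. Among counts from 1 to 10, 72.5% to 87.9% in a library were even numbers, where odd and even would be about equally frequent if single reads had been counted. Intervals of ratios to a control of 2 counts are therefore also given with the counts halved.

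Of the 38 genes, 34 had enough counts to be tested. In L(3)mbt KD 17 of the 34 were higher than in EGFP KD past the threshold (edgeR, Benjamini-Hochberg adjusted p under 0.05) and none was lower. Over all 8244 tested genes 10.9% passed in either direction, 9.58% as higher and 1.31% as lower. In Lint-1 KD 10 of the 34 were higher and none lower, where 9.66% of all genes passed, 8.41% as higher and 1.25% as lower. In Lint-O KD 11 were higher and none lower, where 5.46% of all genes passed, 5.2% as higher and 0.255% as lower. The list was chosen with these comparisons known, so its shares are set beside the background only to be read with it. The background depended on level. Of all tested genes with a mean of 1 to 10 CPM, 25.5%, 21.7% and 15.0% were higher in L(3)mbt KD, Lint-1 KD and Lint-O KD. Of the 13 listed genes in that range, 9, 6 and 8 were higher. At 10 CPM or more the shares of all genes were 5.87%, 5.49% and 3.1%, with 7, 4 and 3 of 19 listed genes higher. The knockdown comparisons share the EGFP KD libraries. In bulk RNA a change in the cells that carry a transcript and a change in RNA per cell cannot be told apart. Germ cell marker levels also differed between the groups, and their part in these counts was not tested.

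Both knockdown libraries were above both control libraries for 23 listed genes in L(3)mbt KD and below for none, where 26.5% of all tested genes were above and 22.5% below. In Lint-1 KD 16 listed genes were above and 4 below, against 29.6% and 26.7% of all genes. In Lint-O KD 18 were above and none below, against 21.8% and 18.3%.

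The median log2 fold change of the 34 listed genes was 1.07 in L(3)mbt KD, 0.55 in Lint-1 KD and 0.51 in Lint-O KD. With 1 library left out it ran from 0.90 to 1.15, from 0.23 to 0.80 and from 0.28 to 0.85. Over all 80 tested chromosome 4 genes, listed or not, it was 0.61, 0.01 and 0.09. Over all tested genes it was -0.01 in each knockdown. Of the 80 genes 60 had a log2 fold change above 0 in L(3)mbt KD, 40 in Lint-1 KD and 50 in Lint-O KD. Medians of the chromosome arms X, 2L, 2R, 3L and 3R lay between -0.03 and 0.04 in every knockdown. The chromosome 4 median in L(3)mbt KD ranged from 0.39 to 0.82 when 1 library was left out. In Lint-1 KD it ranged from -0.02 to 0.24 and in Lint-O KD from -0.04 to 0.45, so its sign there depended on the libraries used.

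**Figure D1:**
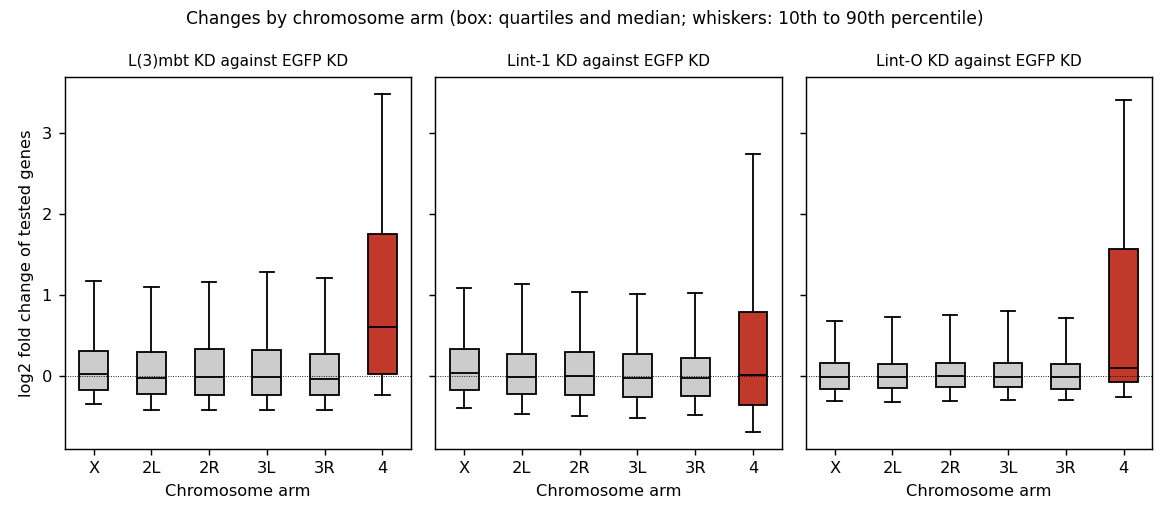
Log2 fold change of tested genes by chromosome arm (horizontal axis) in each knockdown against EGFP KD (vertical axis). Boxes show the quartiles and the median and whiskers the 10th to 90th percentile of genes; the chromosome 4 box (80 genes) has its median at 0.61, 0.01 and 0.09, and the other arms lie within 0.04 of 0.

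The listed genes above the threshold were mostly genes with little RNA in the control. The count filter partly sets this, since a gene near 0 in the control was tested only if knockdown libraries held enough counts. Of the 17 higher in L(3)mbt KD, 9 had a control mean under 1 CPM, 4 between 1 and 10 CPM and 4 of at least 10 CPM. Past the threshold in all 3 knockdowns were 9 of them, namely Actbeta, CG9935, CG11155, Syt7, yellow-h, CG31997, CG32017, CR43425 and CR44440, where 4.42% of all tested genes were higher in all 3 and 0.0364% lower. CaMKI passed in L(3)mbt KD and Lint-1 KD, and CG33521 and dpr7 passed in L(3)mbt KD and Lint-O KD. The other 5, Asator, fuss, mGluR, myo and pho, passed in L(3)mbt KD only in the reported fit, and whether they differ between knockdowns is taken up with the direct comparisons.

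**Figure D2:**
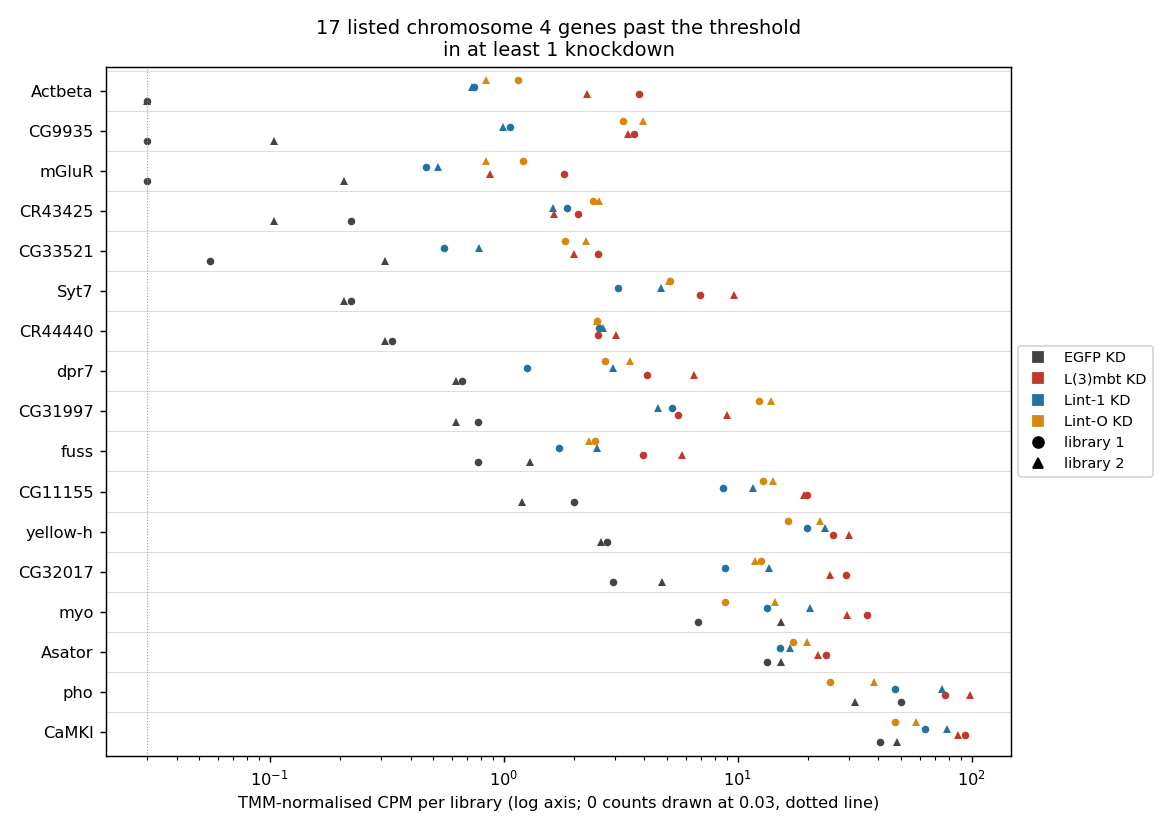
TMM-normalised CPM in each of the 8 libraries (horizontal log axis) for the 17 listed genes past the threshold in at least 1 knockdown, sorted by control level. Colours mark the group and shapes the library; a count of 0 is drawn at 0.03. Both L(3)mbt KD libraries lie above both EGFP KD libraries for every gene. The Lint-O KD libraries overlap the control for pho, CaMKI and myo, and the Lint-1 KD libraries overlap it for pho, myo and Asator.

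Among signalling ligands of the TGF-beta family, the largest difference was that of Actbeta (4, 1077331 to 1084796), which encodes an activin-type ligand. Its RNA had no count in either EGFP KD library. It reached 3.78 and 2.26 CPM in the L(3)mbt KD libraries, 0.744 and 0.733 CPM in Lint-1 KD and 1.15 and 0.839 CPM in Lint-O KD. Against a floor of 3 counts per control library Actbeta was at least 18.8-fold higher in L(3)mbt KD, at least 4.58-fold higher in Lint-1 KD and at least 6.18-fold higher in Lint-O KD. Every knockdown library was above both controls, and the L(3)mbt KD libraries were the highest.

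myo (690686 to 696055) encodes myoglianin, another activin-type ligand, and was already expressed in the control. Its libraries had 6.76 and 15.4 CPM in the control, 35.7 and 29.3 CPM in L(3)mbt KD, 13.4 and 20.5 CPM in Lint-1 KD and 8.85 and 14.5 CPM in Lint-O KD. Only the L(3)mbt KD libraries were clear of the control pair, with a log2 fold change of 1.55 (SE 0.390). mav (623219 to 626031), the gene of the ligand maverick, had a mean of 13.4 ± 3.26 CPM in the control and 13.7 ± 5.79 CPM in L(3)mbt KD (mean ± SD, n = 2, here and below). It was at 11.2 ± 3.65 CPM in Lint-1 KD and 19.97 ± 3.57 CPM in Lint-O KD, with both Lint-O KD libraries above the controls and no call.

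Downstream in that pathway, fuss (962341 to 978489) encodes a protein of the Ski and SnoN family. It had 0.776 and 1.30 CPM in the control, 3.93 and 5.76 CPM in L(3)mbt KD, 1.72 and 2.51 CPM in Lint-1 KD and 2.46 and 2.31 CPM in Lint-O KD. All 6 knockdown libraries were above the control pair, and the log2 fold changes were 2.21 (SE 0.392) in L(3)mbt KD, 1.01 (SE 0.406) in Lint-1 KD and 1.19 (SE 0.404) in Lint-O KD, of which the first passed. The span of fuss overlaps those of the RNA genes sphinx and CR44030. Of 17 tested genes of the TGF-beta and activin pathway, which include these 4, Actbeta, myo and fuss were the only ones past the threshold in L(3)mbt KD and Actbeta the only one in Lint-1 KD and Lint-O KD, all higher. With the DESeq2 Wald test the follistatin gene Fs also passed in Lint-1 KD. Actbeta, myo and fuss are listed genes, so the pathway counts are not independent of how the list was chosen.

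All 3 listed genes for glutamate receptors were low in the control and higher after L(3)mbt knockdown. CG9935 (636131 to 646556), named Ekar in RefSeq, encodes an ionotropic receptor subunit of the kainate type. Its counts were 0 and 2 in the EGFP KD libraries, against 3.62 and 3.39 CPM in L(3)mbt KD, 1.07 and 0.995 CPM in Lint-1 KD and 3.25 and 3.93 CPM in Lint-O KD. The ratio to the control was 65.4 in L(3)mbt KD, with a 95% counting interval of 17.8 to 546 (11.3 to 2621 with halved counts). It was 19.3 (5.02 to 164, halved 3.10 to 797) in Lint-1 KD and 66.9 (18.2 to 558, halved 11.53 to 2662) in Lint-O KD. Lint-O KD was as high here as L(3)mbt KD, and Lint-1 KD was lower than both in every library.

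CG11155 (1126602 to 1137919), a second ionotropic receptor gene of the kainate type, had 1.99 and 1.20 CPM in EGFP KD. It had 19.8 and 19.2 CPM in L(3)mbt KD, 8.69 and 11.6 CPM in Lint-1 KD and 12.8 and 14.2 CPM in Lint-O KD. The 4 groups did not overlap, with log2 fold changes of 3.61 (SE 0.283), 2.67 (SE 0.281) and 3.08 (SE 0.281) in that order of knockdowns. mGluR (936819 to 949441), the gene of the metabotropic receptor, had counts of 0 and 4 in the control. It reached 1.81 and 0.874 CPM in L(3)mbt KD, 0.465 and 0.524 CPM in Lint-1 KD and 1.20 and 0.839 CPM in Lint-O KD. All knockdown libraries were above both controls, and mGluR passed in L(3)mbt KD (log2 fold change 3.57, SE 0.894). In Lint-O KD mGluR passed with the DESeq2 Wald test and with no low-count filter, but not in the reported fit.

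Only 5 of 15 glutamate receptor genes had enough counts for a test. Of these 5, mGluR, CG9935, CG11155 and GluRIB were higher in L(3)mbt KD, CG9935, CG11155 and GluRIB in Lint-1 KD, and CG9935 and CG11155 in Lint-O KD. Over all tested genes 9.58%, 8.41% and 5.2% were higher in these knockdowns. But mGluR, CG9935 and CG11155 are listed genes, chosen by values of these same libraries, so the receptor counts are a description only. GluRIB, an AMPA-type subunit gene outside chromosome 4, went from a control level of 5.96 ± 1.06 CPM to 11.1 ± 0.498 CPM in L(3)mbt KD (edgeR adjusted p = 0.0326) and 10.8 ± 0.135 CPM in Lint-1 KD (edgeR adjusted p = 0.0403). GluRIB passed in neither knockdown once any 1 of the compared libraries was left out.

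Syt7 (278685 to 306481) encodes a synaptotagmin, a calcium sensor of vesicle fusion. It had 0.222 and 0.208 CPM in the control, 6.88 and 9.62 CPM in L(3)mbt KD, 3.07 and 4.71 CPM in Lint-1 KD and 5.13 and 5.09 CPM in Lint-O KD. No group overlapped another, and the log2 fold changes were 5.22 (SE 0.420), 4.14 (SE 0.434) and 4.53 (SE 0.428) in L(3)mbt KD, Lint-1 KD and Lint-O KD. dpr7 (247124 to 253329) belongs to the Dpr family of immunoglobulin-domain proteins of the cell surface. It had 0.665 and 0.624 CPM in the control, 4.09 and 6.53 CPM in L(3)mbt KD, 1.26 and 2.93 CPM in Lint-1 KD and 2.72 and 3.46 CPM in Lint-O KD. The control pair was below the rest, while the Lint-1 KD libraries lay 2.34-fold apart and that comparison did not pass (log2 fold change 1.68, SE 0.511). It passed under 4 other settings, the DESeq2 Wald test, no low-count filter, the crossed replicate block and the fit without Lint-1 KD 1 (log2 fold change 1.64 to 2.16).

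yellow-h (227922 to 230428), of the Yellow family of secreted proteins, was among the higher-count members of the list that passed in all 3 knockdowns. It had 2.77 and 2.60 CPM in the control, 25.7 and 29.98 CPM in L(3)mbt KD, 19.7 and 23.7 CPM in Lint-1 KD and 16.4 and 22.5 CPM in Lint-O KD. The log2 fold changes were 3.37 (SE 0.236), 3.01 (SE 0.235) and 2.86 (SE 0.234), and the Lint-1 KD and Lint-O KD libraries interleaved.

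Of the 3 protein-coding genes without an assigned role here, CG31997 (154654 to 156060) had a different order of knockdowns. It had 0.776 and 0.624 CPM in the control, 5.59 and 9.0 CPM in L(3)mbt KD, 5.25 and 4.55 CPM in Lint-1 KD and 12.4 and 13.9 CPM in Lint-O KD. Both Lint-O KD libraries were above all others, with log2 fold changes against the control of 3.37 (SE 0.337), 2.80 (SE 0.341) and 4.22 (SE 0.335). CG33521 (1185768 to 1192985) had counts of 1 and 6 in the control, 2.54 and 2.01 CPM in L(3)mbt KD, 0.558 and 0.785 CPM in Lint-1 KD and 1.83 and 2.25 CPM in Lint-O KD. L(3)mbt KD and Lint-O KD overlapped each other at about the same level, above Lint-1 KD.

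CG32017 (1137830 to 1162158) shares 14693 bases of its span with Kif3C, and its level is uncertain because the treatment of reads in shared bases is unknown here. It had 2.94 and 4.73 CPM in the control, 29.2 and 24.8 CPM in L(3)mbt KD, 8.88 and 13.6 CPM in Lint-1 KD and 12.6 and 11.8 CPM in Lint-O KD. The log2 fold changes were 2.81 (SE 0.292), 1.55 (SE 0.288) and 1.67 (SE 0.289), with L(3)mbt KD above both other knockdowns. Its neighbour Kif3C, a kinesin gene, also had its highest mean in L(3)mbt KD (log2 fold change 0.52, not past the threshold). In Lint-1 KD and Lint-O KD, unlike CG32017, Kif3C had lower means than in the control. Kif3C was at 38.4 ± 9.46 CPM in EGFP KD, 55.1 ± 2.25 CPM in L(3)mbt KD, 21.4 ± 1.00 CPM in Lint-1 KD and 32.3 ± 6.21 CPM in Lint-O KD, and passed as lower in Lint-1 KD (edgeR adjusted p = 0.0311, log2 fold change -0.84, SE 0.202). That call was lost without EGFP KD 2 or either Lint-1 KD library.

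The 2 non-coding RNA genes lay between 1.62 and 3.03 CPM in the 6 knockdown libraries. CR44440 (44774 to 46074) had 0.333 and 0.312 CPM in the control, 2.54 and 3.03 CPM in L(3)mbt KD, 2.56 and 2.67 CPM in Lint-1 KD and 2.51 and 2.52 CPM in Lint-O KD. CR43425 (867824 to 871426) had 0.222 and 0.104 CPM in the control, 2.07 and 1.65 CPM in L(3)mbt KD, 1.86 and 1.62 CPM in Lint-1 KD and 2.41 and 2.57 CPM in Lint-O KD. The 3603 bases of CR43425 lie wholly within the span of unc-13, so its reads cannot be told apart from those of unc-13 without the strand setting. unc-13 itself had log2 fold changes of 0.05 (SE 0.258), -0.03 (SE 0.258) and 0.06 (SE 0.258), none past the threshold.

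The 3 remaining genes past the threshold, like myo above, were expressed at 10 CPM or more in the control. CaMKI (445504 to 453947) encodes calcium and calmodulin dependent protein kinase I. It had 40.8 and 47.98 CPM in the control, 93.9 and 87.2 CPM in L(3)mbt KD, 63.2 and 78.2 CPM in Lint-1 KD and 46.9 and 58.1 CPM in Lint-O KD. The L(3)mbt KD and Lint-1 KD pairs were above the control (log2 fold change 1.03, SE 0.166, and 0.67, SE 0.165), and the Lint-O KD pair overlapped it. Asator (469409 to 488994), a kinase gene of the tau-tubulin kinase family, had 13.4 and 15.3 CPM in the control, 23.9 and 22.1 CPM in L(3)mbt KD, 15.2 and 16.7 CPM in Lint-1 KD and 17.3 and 19.7 CPM in Lint-O KD. Its log2 fold change in L(3)mbt KD was 0.68 (SE 0.172), and that call was lost with any 1 of the 4 compared libraries left out.

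pho (1172469 to 1181628) encodes Pleiohomeotic, a DNA-binding protein that recruits Polycomb group complexes. It had 49.8 and 31.8 CPM in the control, 77.3 and 98.2 CPM in L(3)mbt KD, 47.2 and 74.4 CPM in Lint-1 KD and 24.7 and 38.1 CPM in Lint-O KD. L(3)mbt KD was the highest pair (log2 fold change 1.11, SE 0.299), and Lint-O KD had the lowest mean, overlapping the control. Without EGFP KD 2 or L(3)mbt KD 2 the pho call was lost (log2 fold change 0.82 and 0.94). Of 15 tested Pho and Polycomb group genes pho was the only one past the threshold in L(3)mbt KD. None passed in Lint-1 KD or Lint-O KD with edgeR or with DESeq2, with 0 unadjusted edgeR p-values under 0.05 in either.

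Several listed calls were lost when 1 library was left out, with every fold change in the same direction. In L(3)mbt KD those of mGluR and myo did not hold with either EGFP KD 1 (log2 fold change 2.68 and 1.10) or L(3)mbt KD 1 (2.95 and 1.39 in that order) removed. In Lint-1 KD that of CaMKI was lost without either control library or Lint-1 KD 2 (0.51 to 0.79), and that of CG32017 without EGFP KD 1 (1.25) or Lint-1 KD 2 (1.21). In Lint-O KD that of CG32017 was lost without EGFP KD 1 (1.40) or Lint-O KD 1 (1.63), that of CG33521 without EGFP KD 1 (2.72) or Lint-O KD 2 (3.27), and that of dpr7 without any 1 of the compared libraries (2.08 to 2.42). Actbeta, with no count in the control, lost its Lint-O KD call without Lint-O KD 1.

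The other 17 tested genes of the list passed in no knockdown. They include the effectors of Hedgehog and Wnt signalling, the Eph and plexin guidance receptors, and genes of general cell functions. ci (47710 to 57041), the transcription factor at the end of the Hedgehog pathway, had 24.6 and 48.4 CPM in the control, 56.6 and 31.2 CPM in L(3)mbt KD, 35.4 and 23.1 CPM in Lint-1 KD and 39.6 and 60.1 CPM in Lint-O KD. The libraries of a group differed by 1.52-fold to 1.97-fold, and each knockdown overlapped the control. None of the 14 tested Hedgehog pathway genes, ci among them, passed in edgeR in any knockdown, with 1, 3 and 0 unadjusted p-values under 0.05 in L(3)mbt KD, Lint-1 KD and Lint-O KD. DESeq2 called hh in Lint-1 KD.

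pan (69326 to 114270) encodes the TCF transcription factor of the Wnt pathway and was nearest to the threshold. It had 0.665 and 1.14 CPM in the control, 2.28 and 1.65 CPM in L(3)mbt KD, 1.77 and 0.838 CPM in Lint-1 KD and 2.99 and 4.04 CPM in Lint-O KD. The Lint-O KD pair was above all other libraries with a log2 fold change of 1.94 (SE 0.479). This change passed under 9 other settings, among them DESeq2 size factors, upper-quartile scaling and removal of the gene-span trend. The 9 also include the crossed replicate block and halved counts, which were not planned. They include neither the replicate block nor any fit with 1 library left out. lgs (436957 to 443911), which links beta-catenin to its co-activator Pygopus, was at 44.1 ± 15.4 CPM in EGFP KD, 39.8 ± 19.4 CPM in L(3)mbt KD, 28.3 ± 8.59 CPM in Lint-1 KD and 43.0 ± 10.7 CPM in Lint-O KD. Of 18 tested Wnt pathway genes, Wnt2 and Wnt4 were higher in L(3)mbt KD, Wnt2 higher and Wnt6 lower in Lint-1 KD, and Wnt2 higher in Lint-O KD. Wnt2, a ligand gene outside chromosome 4, had a control level of 39.3 ± 2.99 CPM and rose to 82.6 ± 6.64 CPM in L(3)mbt KD (edgeR adjusted p = 0.0011, log2 fold change 1.07, SE 0.140). The log2 fold change of Wnt2 was 0.92 in Lint-1 KD (edgeR adjusted p = 0.00289) and 0.70 in Lint-O KD (edgeR adjusted p = 0.0184), that of Wnt4 2.02 in L(3)mbt KD (edgeR adjusted p = 0.0171) and that of Wnt6 -1.01 in Lint-1 KD (edgeR adjusted p = 0.0272). The Lint-O KD call of Wnt2 was lost without any 1 of the compared libraries. The Wnt4 call was lost without either control library or L(3)mbt KD 2 (edgeR adjusted p = 0.06 to 0.0854), and that of Wnt6 without EGFP KD 2 or either Lint-1 KD library (edgeR adjusted p = 0.0869 to 0.198).

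Of the receptor genes, PlexA (1009895 to 1027101), a semaphorin receptor, had 53.3 and 80.3 CPM in the control, 120 and 88.7 CPM in L(3)mbt KD, 56.2 and 63.2 CPM in Lint-1 KD and 53.1 and 74.4 CPM in Lint-O KD. The L(3)mbt KD pair was above the control (log2 fold change 0.64, SE 0.238) without a call. PlexB (32478 to 43778), its paralogue, was at 6.69 ± 3.19 CPM in EGFP KD, 6.64 ± 2.40 CPM in L(3)mbt KD, 4.15 ± 0.243 CPM in Lint-1 KD and 7.94 ± 2.93 CPM in Lint-O KD. No gene among 9 tested semaphorins, plexins and their partners passed in any knockdown with edgeR or DESeq2, with 1, 1 and 0 unadjusted edgeR p-values under 0.05.

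Eph (610684 to 622470), a receptor tyrosine kinase, was at 28.0 ± 6.09 CPM in EGFP KD, 24.4 ± 9.27 CPM in L(3)mbt KD, 20.6 ± 7.28 CPM in Lint-1 KD and 30.3 ± 6.46 CPM in Lint-O KD. Its ligand gene Ephrin (571755 to 580122) was at 6.21 ± 1.88, 9.34 ± 1.57, 5.35 ± 0.728 and 8.10 ± 1.30 CPM in the same order of groups. Both L(3)mbt KD libraries of Ephrin were above the controls, while the Eph groups overlapped throughout. Crk (210224 to 213165), an adaptor protein gene downstream of receptor kinases, was at 52.6 ± 3.66, 69.0 ± 2.14, 65.0 ± 5.08 and 54.2 ± 5.33 CPM. The L(3)mbt KD and Lint-1 KD pairs of Crk were above the control with log2 fold changes of 0.39 (SE 0.135) and 0.31 (SE 0.134).

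Among RNA regulators and repair genes, gw (649041 to 660608), whose product GW182 acts with Argonaute in miRNA silencing, was at 178 ± 27.9 CPM in EGFP KD, 177 ± 38.7 CPM in L(3)mbt KD, 159.8 ± 15.3 CPM in Lint-1 KD and 165 ± 24.1 CPM in Lint-O KD. 4E-T (951542 to 958392), which binds the cap-binding factor and represses translation, was at 22.4 ± 5.17, 23.1 ± 10.2, 13.7 ± 3.31 and 22.9 ± 4.79 CPM. Both genes differed from the control by less than the spread between libraries, except that both Lint-1 KD libraries of 4E-T were below it. Of 15 tested genes of miRNA silencing and mRNA decay, the poly(A)-binding protein gene pAbp passed in L(3)mbt KD (log2 fold change 0.45, edgeR adjusted p = 0.0356) and none passed in the other knockdowns with edgeR or DESeq2, with 2 and 0 unadjusted edgeR p-values under 0.05. The pAbp call was lost without any 1 of the compared libraries (edgeR adjusted p = 0.0543 to 0.203).

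Rad23 (308093 to 310822), a ubiquitin receptor of nucleotide excision repair, was at 173 ± 28.7 CPM in EGFP KD, 147 ± 37.3 CPM in L(3)mbt KD, 130.2 ± 29.6 CPM in Lint-1 KD and 187 ± 17.5 CPM in Lint-O KD. Both Lint-1 KD libraries of Rad23 were below the control pair, as were those of PlexB. Thd1 (538332 to 557854), named Tdg in RefSeq, encodes a thymine DNA glycosylase. It had 22.3 and 47.3 CPM in the control, 44.4 and 12.6 CPM in L(3)mbt KD, 18.7 and 16.1 CPM in Lint-1 KD and 27.2 and 42.9 CPM in Lint-O KD. The L(3)mbt KD libraries of Thd1 lay 3.52-fold apart, L(3)mbt KD 1 within the control pair and L(3)mbt KD 2 below it, and without L(3)mbt KD 1 Thd1 passed as lower (log2 fold change -1.48), the only listed gene past the threshold as lower in L(3)mbt KD when 1 library was left out.

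Ank (115074 to 129849), the ankyrin gene, had 71.6 and 124 CPM in the control, 117 and 55.3 CPM in L(3)mbt KD, 87.1 and 59.6 CPM in Lint-1 KD and 78.9 and 114 CPM in Lint-O KD. PMCA (328193 to 358917), the calcium pump of the plasma membrane, was at 45.2 ± 11.4, 50.8 ± 18.5, 40.1 ± 6.97 and 46.4 ± 14.1 CPM in EGFP KD, L(3)mbt KD, Lint-1 KD and Lint-O KD. bt (724400 to 776474), which encodes the muscle protein projectin, was at 2.84 ± 1.43, 4.41 ± 0.202, 2.19 ± 1.31 and 4.69 ± 0.410 CPM. For Ank and PMCA every knockdown overlapped the control, whereas the L(3)mbt KD and Lint-O KD pairs of bt were above it without a call. onecut (598555 to 607649), a homeodomain transcription factor gene, had counts of 0 and 2 in EGFP KD, 14 and 4 in L(3)mbt KD, 10 and 6 in Lint-1 KD and 8 and 20 in Lint-O KD. The ratio to the control was 8.66 (95% counting interval 2.07 to 76.9, and 1.20 to 379 with halved counts) in L(3)mbt KD, 7.34 (1.73 to 65.8, halved 0.985 to 326) in Lint-1 KD and 13.7 (3.45 to 118, halved 2.08 to 578) in Lint-O KD. With halved counts the Lint-1 KD interval of onecut included 1.

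The 17 genes without a call shared a pattern between the libraries of a group. EGFP KD 2 was above EGFP KD 1 in all 17, L(3)mbt KD 1 above L(3)mbt KD 2 in 16, Lint-1 KD 1 above Lint-1 KD 2 in 14 and Lint-O KD 2 above Lint-O KD 1 in all 17. In 14 of the 17 all 4 of these held, against 1 of the 17 genes with a call, CG9935. The 14 are 4E-T, Ank, Eph, PMCA, PlexB, Rad23, Thd1, bt, ci, gw, lgs, mav, onecut and pan. Among the 46 unlisted chromosome 4 genes 12 showed the same. The 4 directions were taken from these same libraries and were not planned. A wide spread within a group also makes a call less likely, so genes without a call are partly selected for it. These counts are therefore a description only, and the share of all tested genes with the pattern was not computed. The same libraries differed for genes with long spans across the genome: over the long-span part of the tested genes when ranked by span (2718 genes, at least 4529 bases) the median log2 deviation from the mean of the 8 libraries was -0.09 in EGFP KD 1 and 0.15 in EGFP KD 2, and 0.21 in L(3)mbt KD 1 and -0.07 in L(3)mbt KD 2. It was 0.06 and -0.05 in the Lint-1 KD libraries and -0.13 and 0.06 in the Lint-O KD libraries. Over the 80 chromosome 4 genes the deviations were -0.39 and 0.01 in EGFP KD, 0.55 and 0.27 in L(3)mbt KD, -0.09 and -0.15 in Lint-1 KD and 0.01 and 0.25 in Lint-O KD. The median span was 11301 bases for the 17 genes without a call, 8444 bases for the 17 with one, 8406 bases for tested chromosome 4 genes and 2750 bases for all tested genes with a known span. What makes these libraries differ was not tested.

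**Figure D3:**
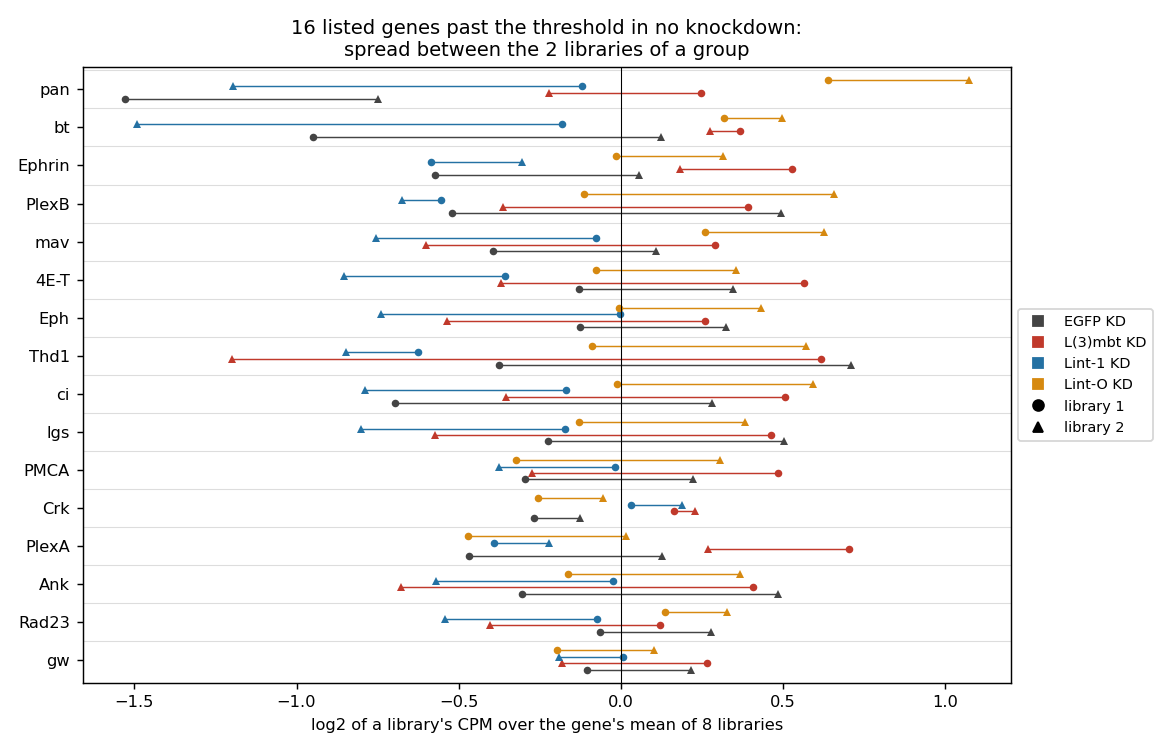
Log2 of each library's CPM over the gene's mean of the 8 libraries (horizontal axis) for 16 listed genes past the threshold in no knockdown; onecut, with a count of 0 in 1 library, is left out. A line joins the 2 libraries of a group, so its length is their difference, which reached 3.52-fold for Thd1 in L(3)mbt KD.

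The remaining 4 listed genes had too few counts for the test, and all 4 encode transcription factors of development. ey (697689 to 721173), a Pax6 gene of eye development, had counts of 6 and 2 in EGFP KD, 22 and 2 in L(3)mbt KD, 3 and 8 in Lint-1 KD and 4 and 3 in Lint-O KD. toy (989725 to 1007922), the other Pax6 gene, had 1 and 4 counts in EGFP KD, 0 and 0 in L(3)mbt KD, 0 and 2 in Lint-1 KD and 2 and 0 in Lint-O KD. zfh2 (501810 to 540874), a zinc finger and homeodomain gene, had 0 to 6 counts in every library. sv (1088798 to 1113317), a Pax2-type gene, had no count in any of the 8 libraries, which allows up to 0.143 to 0.164 CPM per library (3 counts, counting error only). The single value of 22 counts for ey was in L(3)mbt KD 1 and was not matched by the other library of that group. Of 11 retinal determination genes 4 were tested, and neither ey nor toy was among them. The cofactor gene eya was higher in L(3)mbt KD (log2 fold change 0.75, edgeR adjusted p = 0.0224) and in Lint-1 KD (1.42, edgeR adjusted p = 0.000846), and the homeodomain gene so in Lint-1 KD (0.61, edgeR adjusted p = 0.0248). The eya call in L(3)mbt KD was lost without either control library or L(3)mbt KD 2 (edgeR adjusted p = 0.0758 to 0.124), and the so call without any 1 of the compared libraries (edgeR adjusted p = 0.0746 to 0.203). None of the 4 passed in Lint-O KD with edgeR or DESeq2, with 0 unadjusted edgeR p-values under 0.05.

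Along the chromosome, several of the listed genes with a call were neighbours among the tested genes. yellow-h, the unlisted CG1674, dpr7 and the unlisted RhoGAP102A (227922 to 265574) followed each other and were all higher in L(3)mbt KD and in Lint-O KD. With NfI and Syt7 they make up the 6 tested genes between 227922 and 306481, of which 5 were higher in L(3)mbt KD, 3 in Lint-1 KD and 5 in Lint-O KD. Over all tested genes 9.58%, 8.41% and 5.2% were higher. The window was drawn to start at yellow-h and end at Syt7, both called in all 3 knockdowns, so its counts are a description only. NfI, the gene of the window called in no knockdown, had at most 0.932 CPM in any library. CG11155 and CG32017 (1126602 to 1162158), whose spans overlap by 90 bases, were both higher in all 3 knockdowns. pho and CG33521 (1172469 to 1192985) were both higher in L(3)mbt KD. Whether such runs are longer than the number of called genes would give was not tested.

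**Figure D4:**
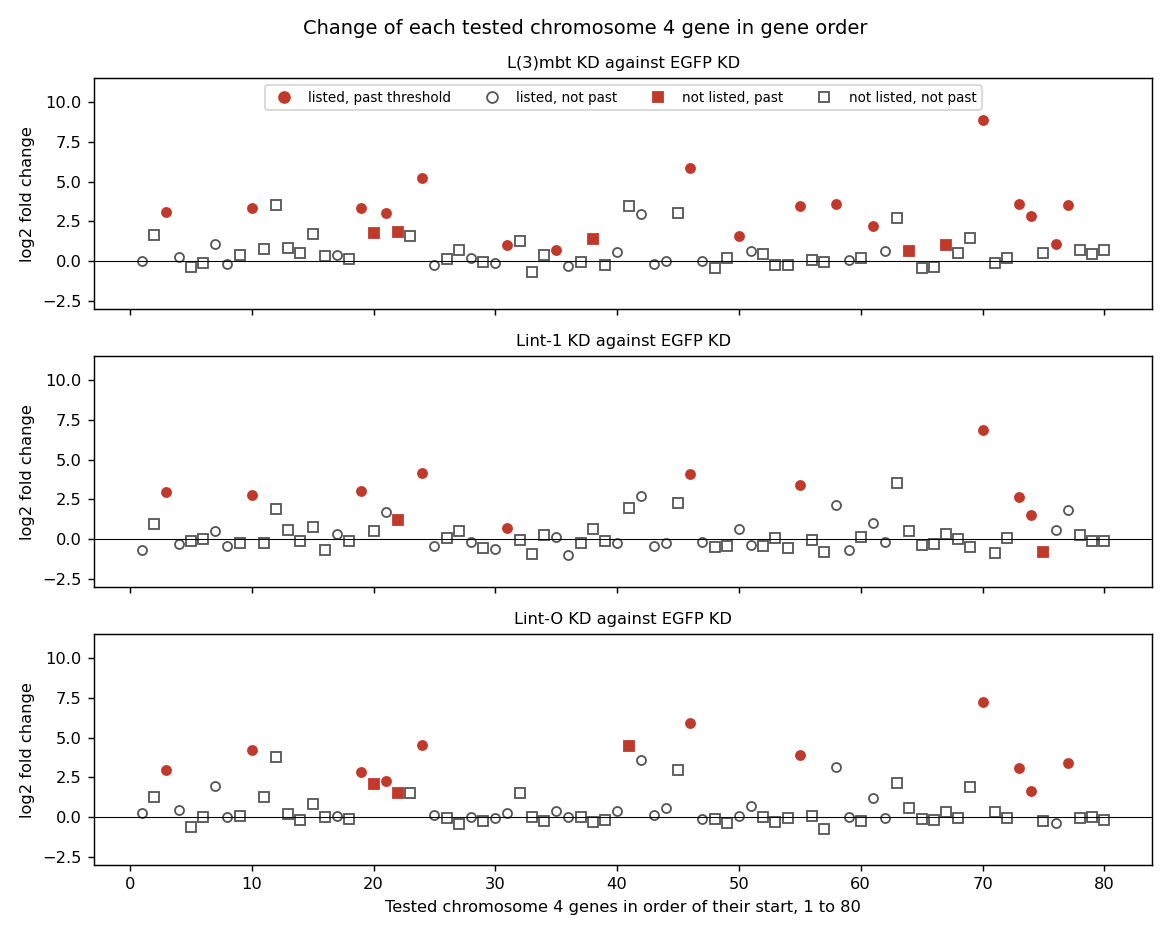
Log2 fold change against EGFP KD (vertical axis) of the 80 tested chromosome 4 genes in order of their start (horizontal axis), with 1 panel for each knockdown. Filled symbols are past the threshold and circles are listed genes; 4 adjacent filled symbols in L(3)mbt KD and Lint-O KD are yellow-h, CG1674, dpr7 and RhoGAP102A.

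Direct comparisons between knockdowns gave few calls anywhere in the genome. Of all tested genes 0.0728% passed between Lint-1 KD and L(3)mbt KD, 0.0364% as higher and 0.0364% as lower in Lint-1 KD. Between Lint-O KD and L(3)mbt KD 0.704% passed, 0.0364% as higher and 0.667% as lower in Lint-O KD. Between Lint-1 KD and Lint-O KD 1.18% passed, 0.91% as higher and 0.267% as lower in Lint-1 KD. All 34 listed genes had a lower fitted level in Lint-1 KD than in L(3)mbt KD, with a median log2 difference of -0.58. Of all 8244 tested genes 4106 were lower. Both Lint-1 KD libraries were below both L(3)mbt KD libraries in 19 of the 34, and this share was not computed over all tested genes. Of all 80 tested chromosome 4 genes, 73 were lower in Lint-1 KD, with the same median of -0.58 against 0.00 over all tested genes. None of the 80 passed in edgeR, while 28 had an unadjusted edgeR p under 0.05, as had 513 of all 8244 tested genes. The DESeq2 Wald test called 3 of the 80, and its share over all tested genes is not given here. The median of the 80 stayed below 0 without any 1 library (-0.71 to -0.37).

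Between Lint-O KD and L(3)mbt KD the listed genes split, with 14 higher and 20 lower in Lint-O KD and a median log2 difference of -0.14. Without L(3)mbt KD 1 the split turned to 20 higher and 14 lower, with a median of 0.14, so its direction depended on that library. None of the listed genes passed. The genes lower in Lint-O KD in both libraries included pho (log2 difference -1.48, SE 0.302), myo (-1.48, SE 0.389), CG32017 (-1.14, SE 0.267) and CaMKI (-0.79, SE 0.164), and CG31997 was higher (0.85, SE 0.263). Of all 8244 tested genes 4185 were lower and 4059 higher in Lint-1 KD than in Lint-O KD. Among listed genes 28 were lower and 6 higher in Lint-1 KD, with a median of -0.52. Of these CG31997 passed, with a log2 difference of -1.42 (SE 0.269). CG9935 (-1.79, SE 0.411), CG33521 (-1.60, SE 0.518) and pan (-1.42, SE 0.457) were lower in both Lint-1 KD libraries without passing. For Asator, fuss, mGluR, myo and pho, past the threshold in L(3)mbt KD alone against the control, no direct difference between knockdowns passed.

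Of the 46 tested chromosome 4 genes that were not listed, 5 were higher and none lower in L(3)mbt KD, 1 was higher and 1 lower in Lint-1 KD, and 3 were higher and none lower in Lint-O KD. These are 10.9%, 4.35% and 6.52% of the 46, where 10.9%, 9.66% and 5.46% of all tested genes passed. Their median log2 fold changes were 0.42, -0.08 and -0.02. With 1 library left out these medians ran from 0.28 to 0.73, from -0.23 to 0.10 and from -0.14 to 0.22, so the sign of the last 2 depended on the libraries used. RhoGAP102A (254997 to 265574) passed in all 3 knockdowns, going from 1.75 ± 0.193 CPM in EGFP KD to 6.35 ± 0.0447 CPM in L(3)mbt KD (edgeR adjusted p = 0.00562), 4.11 ± 0.0376 CPM in Lint-1 KD (edgeR adjusted p = 0.0459) and 5.06 ± 1.97 CPM in Lint-O KD (edgeR adjusted p = 0.0254). The Lint-1 KD call was lost without any 1 of the 4 compared libraries, and the Lint-O KD call without either control library or Lint-O KD 2.

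CG1674 (230730 to 245903) went from 6.73 ± 1.21 CPM in EGFP KD to 23.3 ± 6.85 CPM in L(3)mbt KD (edgeR adjusted p = 0.00311) and 28.2 ± 7.13 CPM in Lint-O KD (edgeR adjusted p = 0.00211), with 9.63 ± 1.19 CPM in Lint-1 KD. Pur-alpha (558016 to 567257), a nucleic acid binding protein gene, rose from 11.7 ± 2.70 CPM in the control to 30.1 ± 2.75 CPM in L(3)mbt KD (edgeR adjusted p = 0.0197, log2 fold change 1.36, SE 0.302). CaMKII (1035288 to 1053703), a kinase related to CaMKI, rose from 31.5 ± 7.30 CPM to 64.4 ± 0.406 CPM in L(3)mbt KD (edgeR adjusted p = 0.00766, log2 fold change 1.03, SE 0.191). The Pur-alpha and CaMKII calls were both lost without EGFP KD 1, and that of Pur-alpha also without L(3)mbt KD 2. CG1909 (583108 to 589348) had 2 counts in the control and 52 in Lint-O KD, a 25.4-fold ratio whose 95% counting interval ran from 6.69 to 215 (4.17 to 1041 with halved counts, edgeR adjusted p = 0.0259), a call lost without any 1 of the compared libraries.

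Of 20 tested genes for proteins that package chromosome 4 and heterochromatin, Pof was higher in L(3)mbt KD and no other passed in any knockdown with edgeR or DESeq2, with 3 and 0 unadjusted edgeR p-values under 0.05 in Lint-1 KD and Lint-O KD. Pof itself rose from 19.9 ± 1.58 CPM to 31.2 ± 3.40 CPM in L(3)mbt KD (edgeR adjusted p = 0.0499, log2 fold change 0.65, SE 0.179). It stood at 27.7 ± 3.58 CPM in Lint-1 KD and 22.4 ± 2.94 CPM in Lint-O KD. The Pof call was lost with DESeq2 size factors, without either control library and without L(3)mbt KD 2.

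Reads on all chromosome 4 genes made up 0.655% to 0.760% of the reads on genes in a library. In EGFP KD the shares were 0.667% and 0.723%, in L(3)mbt KD 0.760% and 0.655%, in Lint-1 KD 0.702% and 0.659%, and in Lint-O KD 0.658% and 0.708%. All groups overlapped. The ribosomal protein gene RpS3A took the most chromosome 4 reads in every library. The 38 listed genes took 0.0761% to 0.143%.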

How the data were processed

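The series has 14 samples. The 8 poly-A selected, stranded RNA libraries were used, and the 6 from chromatin immunoprecipitation or its input were not analysed here. The authors deposited whole-number counts per gene, not normalised, and the submitters' processing notes name HISAT2, HTSeq, edgeR and the dm6 build. For their roles and versions, the annotation release and the strand setting, the sources used here give nothing. Of 16732 entries, 5 that name no gene were left out, and 14.96% to 18.51% of a library's reads lay in no gene and 1.05% to 1.13% were ambiguous. Of 16727 genes 12512 matched the RefSeq table by symbol, 3996 by synonym and 219 not at all.

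Counts were filtered by group with filterByExpr, leaving 8244 genes, scaled by TMM (factors 0.9483 to 1.0562) and fitted with edgeR 4.0.16 (R 4.3.3, glmQLFit and glmQLFTest) over all 8 libraries, with 4 residual degrees of freedom and a biological coefficient of variation of 15.432%. P-values were Benjamini-Hochberg adjusted over all tested genes, with a threshold of 0.05. The procedure was checked on simulated data. Alternatives were other scalings, filters, tests (DESeq2 1.42.0) and fits, and each library left out. Intervals (95%, exact) and the floor of 3 counts cover counting error only.

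The members and gene lists were chosen with earlier results of these data known. Values in every library were given for listed genes past the threshold. Unlisted chromosome 4 genes were named if they passed in all 3 comparisons with the control or had 1 of the 3 largest changes among those that passed in a comparison, and of each pathway list up to 2 called genes. A planned choice by level per kb of coding length and a search of promoters for motifs could not be made, since no coding lengths or sequences were used here, and levels are not compared between genes. Other listed genes whose 8 values are printed were chosen after their values were seen.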

Additional observations from a re-analysis of the deposited data

Results flagged for a closer look

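A direct difference between 2 knockdowns passed the test for 3 chromosome 4 genes, each by edgeR's quasi-likelihood test with 2 libraries a group. CG31997, a listed gene, was lower in Lint-1 KD than in Lint-O KD by a log2 difference of -1.42. CG1674, which is not listed, was lower in the same comparison by a log2 difference of -1.55 (edgeR adjusted p = 0.0348), with 8.78 and 10.5 CPM in Lint-1 KD against 23.2 and 33.2 CPM in Lint-O KD. CG32850, named Rnf11 in RefSeq and not listed, was lower in Lint-O KD than in L(3)mbt KD by a log2 difference of -1.12 (edgeR adjusted p = 0.048), with 10.5 and 9.33 CPM against 19.98 and 23.3 CPM. The CG31997 and CG1674 calls were lost when any 1 of the 4 compared libraries was left out, and that of CG32850 without L(3)mbt KD 2 or either Lint-O KD library.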

How the results depend on the processing

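Log2 fold changes of the 17 listed genes past the threshold were recomputed for all 3 comparisons with the control, giving 713 values. Of these, 667 stayed within 1 SE of the reported fit and 46 moved further. Without EGFP KD 1, 20 moved and 31 stayed, and without EGFP KD 2, 21 moved and 30 stayed. The rest moved when 1 knockdown library was left out. No value with a call in the reported fit was reversed, and reversal was not looked for in values without a call. With 1 library left out, listed genes past the threshold numbered 14 to 15 in L(3)mbt KD, 8 to 11 in Lint-1 KD and 8 to 10 in Lint-O KD, and all chromosome 4 genes 17 to 24, 8 to 11 and 9 to 11, with 9 in Lint-O KD without EGFP KD 1. Without L(3)mbt KD 1 the L(3)mbt KD calls on chromosome 4 split into 21 higher and 3 lower. Lint-1 KD against L(3)mbt KD gave 0 calls on chromosome 4 in the reported fit and 0 to 0 with a library left out, 1 with upper-quartile scaling, 3 with the DESeq2 Wald test, 4 with no filter and 1 with the span trend removed. Lint-O KD against L(3)mbt KD gave 1 call, and 0 with DESeq2 size factors, 2 with upper-quartile scaling, 9 with the Wald test, 11 with no filter, 2 with only the compared libraries, 2 with the span trend removed and 0 to 3 with a library left out. Lint-1 KD against Lint-O KD gave 2, and 9 with the Wald test, 12 with no filter, 12 with only the compared libraries, 5 with the span trend removed and 0 to 0 with a library left out. The cause of these shifts was not tested. Replicate numbers were not shown to pair libraries: correlations of the within-group differences ran from -0.3773 to 0.3563. With the replicate block the listed counts were 14, 10 and 11, all chromosome 4 genes 20, 11 and 12, and the knockdown pairs 0, 0 and 0. A crossed replicate block, chosen after seeing the data, gave 18 listed genes in Lint-1 KD (12 higher, 6 lower), 41, 31 and 23 of all chromosome 4 genes against the control, and 17, 22 and 29 in the pairs in the above order. For settings other than the reported fit, the share of all tested genes past the threshold is not given here. Counts on chromosome 4 under those settings therefore cannot be read as particular to this chromosome. Without RpS3A the chromosome 4 share of reads was 0.3715% and 0.4279% in EGFP KD, 0.4639% and 0.3828% in L(3)mbt KD, 0.3807% and 0.3656% in Lint-1 KD, and 0.3593% and 0.4209% in Lint-O KD. Genes near 3 counts, 0.143 to 0.164 CPM, are limited by depth.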
